A study of Mus musculus with 3 samples.

Results

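Immunoglobulin and B cell genes were followed in the kidneys of mice with early anti-GBM glomerulonephritis. The 7 genes are Ighm, Jchain, Vpreb2, Cd79a, Cd79b, Cd22 and Btk, of 10698 genes with at least 1 row in the deposited table. They were chosen by name, with earlier values of this same comparison known, and every row that the platform annotation gives to 1 of them alone was taken, 13 rows in all. Because the choice was made with these values known, their log ratios are given as a description, without a test. All 3 arrays belong to 1 group: BALB/c mice 11, 12 and 13, studied 1 day after they received an antibody against the glomerular basement membrane, with their total kidney RNA labelled with Cy5. On every array the other channel held Cy3-labelled kidney RNA of 1 pool of 5 normal BALB/c mice. The labels give no age, sex or dose.

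An antibody is built from heavy and light chains, and IgM, the first class a B cell makes, has the heavy chain that Ighm encodes. Before a light chain gene has been assembled, the heavy chain pairs with a surrogate light chain made of a Vpreb protein and the product of Igll1. On the cell surface the chains sit with Cd79a and Cd79b, which carry the signal inward to kinases such as Btk, while Cd22 dampens it. Plasma cells secrete antibody, and Jchain links the units of secreted IgM and IgA. A normal kidney holds few B cells, mostly in vessels and in the tissue between the tubules.

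Values are log ratios of the anti-GBM mouse over the control pool, after subtraction of each array's median. The base of the logarithm is not stated, and neither is the direction. Negative values are likely lower in the anti-GBM kidneys, since Cy5 over Cy3 is how such ratios are commonly formed and those mice carried Cy5. With the opposite order every sign would turn. A value listed as exactly 0 was read as no estimate. The table gives 29.5% to 33.7% of its values per array as 0, and of the 39 values of the 13 rows, 14 (35.9%) were 0. A log ratio holds no level, so the labelled tissue could not be checked against its markers. In whole-kidney RNA, fewer cells of a type and less RNA per cell cannot be told apart. Because 1 pool served as the control on all arrays and the dyes were never swapped, the spread between control mice and any dye bias of a probe are not part of the SDs below. Every SD is over n = 3 mice.

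Of the 7 genes, 5 had a row with a value on all 3 arrays. Their 7 such rows were below 0 on every array, which 28.6% of the 9682 rows measured on all arrays also were. Nothing is read from this count, since the genes were picked with these values known. In order of their mean log ratios, Btk was lowest at -2.14 ± 0.54, followed by Vpreb2 at -0.80 ± 0.27, Jchain at -0.67 ± 0.20, Ighm at -0.50 ± 0.07 and Cd22 at -0.18 ± 0.13. The 3 values of Vpreb2 and Jchain overlapped, and so did those of Jchain and Ighm. Btk lay apart from Vpreb2, and Cd22 lay apart from the gene mean of Ighm. The values of Cd22 did overlap those of Ighm row 5290. With the median of the Ighm rows taken on each array, Ighm was at -0.145, above Cd22. In the order from Btk to Cd22 given above, 6, 38, 66, 158 and 1399 of the 7235 genes measured had a lower mean, and the median of all these genes was -0.001. If the base is 2, Jchain was 1.59-fold lower, and if it is 10, 4.71-fold lower.

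**Figure D1:**
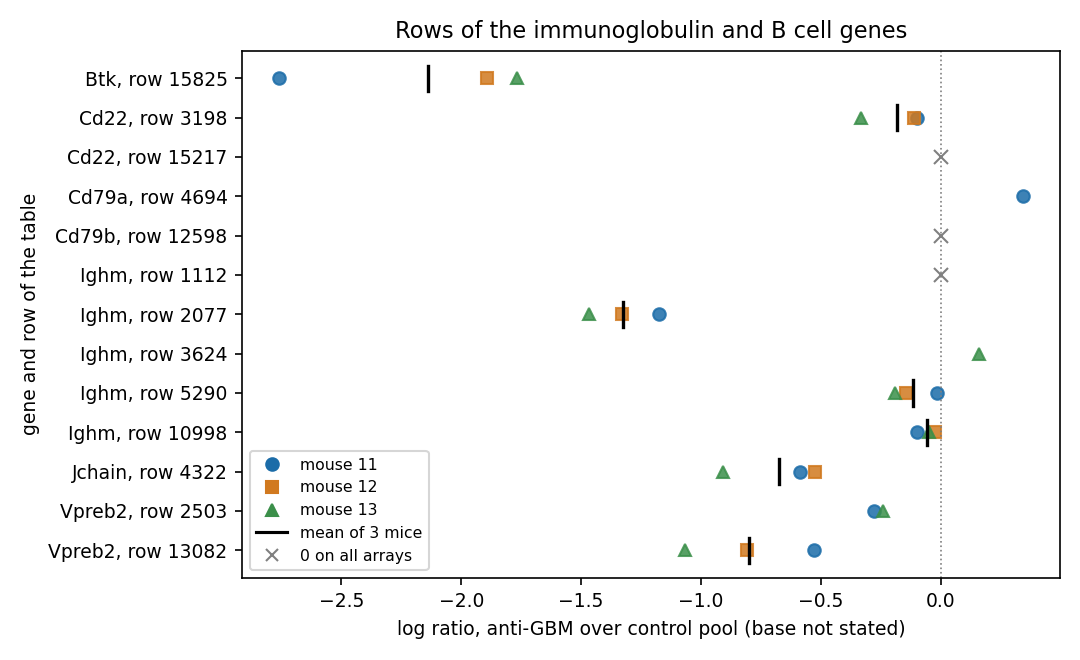
Log ratio (horizontal axis, base not stated) of each of the 13 rows of the 7 genes, with a symbol for each mouse, a bar for the mean where all 3 arrays gave a value, and a cross where all arrays listed 0. Btk in row 15825 and Ighm in row 2077 sit farthest to the left, the other Ighm rows lie near 0, and Cd79a has a value for mouse 11 only.

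The IgM heavy chain gene Ighm had 5 rows, and they did not give the same picture. Row 2077 was at -1.17 in mouse 11, -1.33 in mouse 12 and -1.47 in mouse 13, a mean of -1.32 ± 0.15. Row 5290 was at -0.02, -0.15 and -0.19 in the same mice, a mean of -0.12 ± 0.09. All values of row 2077 were thus lower than any value of the other rows. Row 10998 was at -0.10, -0.02 and -0.05, a mean of -0.06 ± 0.04. Row 3624 had a value in mouse 13 only, 0.16, and row 1112 was listed at 0 on all arrays. The gene mean of -0.50 is therefore the average of 1 row far below 0 and 2 rows close to it, and with the median of its rows taken on each array the gene mean was -0.14. The annotation does not say which part of the heavy chain a row measures, and heavy chain sequences share stretches with each other, so rows can pick up transcripts of other heavy chain genes.

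Jchain, the joining chain of secreted IgM and IgA, had 1 row. It was at -0.59 in mouse 11, -0.52 in mouse 12 and -0.91 in mouse 13, all below 0. Mouse 13 was the lowest, and mice 11 and 12 were close to each other. The epithelial receptor Pigr, which carries J chain-bound antibody across epithelia, did not pass the test (mean -0.29 ± 0.36, limma adjusted p = 0.149). Its values were -0.30 in mouse 11, 0.08 in mouse 12 and -0.64 in mouse 13, so mouse 13 was again the lowest and the mice differed in sign.

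Vpreb2 encodes a surrogate light chain protein of pre-B cells. It has a close copy, Vpreb1, and the stretch upstream of both is nearly the same, which is shown here to let the pair be compared. The stretches are from RefSeq (GRCm38.p6), chr16:16869256-16869361 on the minus strand, the last 106 bases before the annotated start of Vpreb1, and chr16:17980315-17980420 on the plus strand, which begins 250 bases before the annotated start of Vpreb2. Capitals mark the 2 positions at which they differ, and 98.1% of the bases are identical.
Vpreb1: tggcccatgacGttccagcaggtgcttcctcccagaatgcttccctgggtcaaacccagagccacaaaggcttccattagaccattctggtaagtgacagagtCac
Vpreb2: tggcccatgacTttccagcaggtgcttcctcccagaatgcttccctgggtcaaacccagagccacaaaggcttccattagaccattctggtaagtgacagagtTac
The octamer ATGCAAAT, a motif known from antibody gene promoters, was searched on both strands in the windows of 250 bases before to 50 after the start. It was in none of the windows of the 5 genes among the 7 that have one, and in 1.74% of all 32851 windows. At that share its absence from so few windows is the likely outcome, and nothing is read from it.

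The Vpreb2 row with values on all arrays, row 13082, was at -0.53 in mouse 11, -0.81 in mouse 12 and -1.07 in mouse 13. Its other row, 2503, was at -0.28 in mouse 11 and -0.24 in mouse 13 and was listed at 0 in mouse 12. Row 13082 was thus the lower of the pair in both mice that have both values. Vpreb1, tested as a gene outside the 7, was lower past the test (mean -0.60 ± 0.31, limma adjusted p = 0.0143), at -0.26, -0.65 and -0.87 in mice 11, 12 and 13. Mouse 13 was lowest and mouse 11 highest for both Vpreb genes. A second Vpreb1 row was listed at 0 on all arrays. Whether the rows of Vpreb1 and Vpreb2 tell the copies apart was not tested, since no probe or transcript sequence was compared, and the stretches shown lie outside the annotated transcripts. Igll1 and Vpreb3 did not pass the test. Igll1 was at 0.22, -0.58 and -0.52 (adjusted p = 0.201), and Vpreb3, a less similar relative, was at 0.16, 0.22 and 0.08 (adjusted p = 0.171). The recombination gene Rag1, which marks cells that assemble antibody genes, was listed at 0 on all arrays in its only row.

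The signalling pair of the B cell receptor gave almost no estimate. Cd79a had 1 row, at 0.34 in mouse 11 and listed at 0 in mice 12 and 13. Cd79b had 1 row, listed at 0 in all mice. No mean is therefore given for either gene. Cd22, the inhibitory receptor that binds sialic acid, was at -0.10 in mouse 11, -0.11 in mouse 12 and -0.33 in mouse 13 in row 3198, and its other row, 15217, was listed at 0 throughout. Mouse 13 alone was clearly below the others.

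Btk, the Tec family kinase that acts below the B cell receptor and is also made by myeloid cells, was at -2.76 in mouse 11, -1.89 in mouse 12 and -1.77 in mouse 13. Mouse 11 was the lowest, while 5 of the 7 rows of these genes measured on all arrays were lowest in mouse 13, as were 38.7% of all rows measured on all arrays. The Btk row, number 15825, lies among other very low rows. Of 130 other rows within 100 row numbers that had values on 2 or 3 arrays, 17 (13.1%) averaged below -1 before centring, as did 68 of 11074 such rows in the whole table. Of these 17 rows 2 name no gene, and the others include Capn1 (a protease, mean -1.45, 3 row numbers away), the Notch target Hes1 (-2.60) and the antibody light chain segment Igkv16-104 (-1.14, 33 row numbers away). The medians of these 17 rows were -2.30, -2.39 and -1.50 in mice 11, 12 and 13, so these rows too were less low in mouse 13. With the local median of neighbouring rows subtracted, Btk was at -1.98. Most neighbouring rows were not very low, and the median of the 130 rows was -0.157. This subtraction could therefore not remove a shift held by the very low rows alone. The part of row position in the value of Btk was not tested. No such row lay within 100 row numbers of the Jchain row, of Ighm row 2077 or of Vpreb2 row 13082. The other Tec family kinases with values on all arrays were near 0, Bmx at -0.11 ± 0.19 (adjusted p = 0.431) and Txk at -0.07 ± 0.12 (adjusted p = 0.573).

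**Figure D2:**
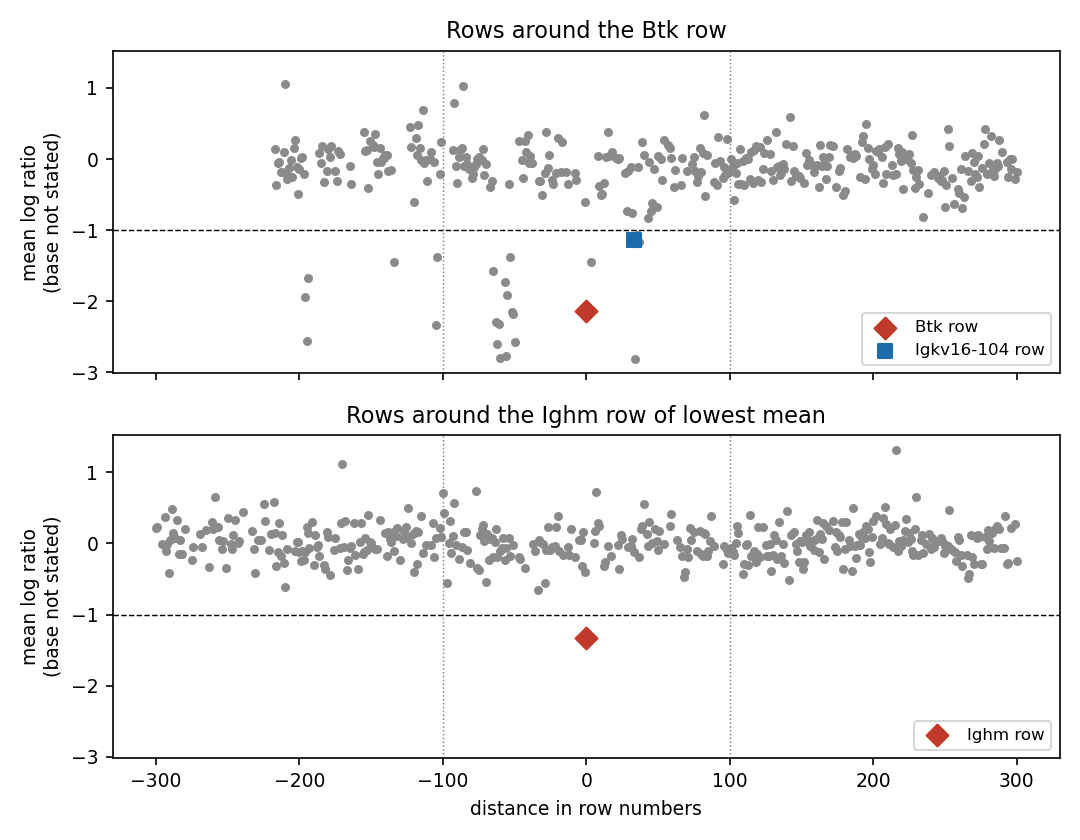
Mean log ratio (vertical axis, base not stated) of rows against their distance in row numbers from the Btk row (top) and from Ighm row 2077 (bottom), for rows with values on 2 or 3 arrays. The dashed line is at -1 and the dotted lines are 100 row numbers away: 17 rows lie below -1 within that distance of Btk, and 0 within that distance of the Ighm row.

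The genes most like these over the 3 arrays were picked by the smallest root mean square difference. For the gene mean of Ighm they were Fkbp11 (0.024), Ifna6 (0.027) and Oxld1 (0.029). That gene mean averages row 2077 (-1.32) with rows 5290 (-0.12) and 10998 (-0.06). The match is thus to the average and not to any single Ighm row. For Jchain the genes most like it were Nrtn (0.059), Trp53-ps (0.069) and Pga5 (0.076). For Btk they were Nfkbib (0.31), Capn15 (0.32) and Lhx1 (0.37), each with at least 10 very low rows within 100 row numbers of its own row. Nfkbib and Lhx1 are themselves 63 and 61 row numbers from Btk. Likeness over 3 arrays is a description only.

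Among other antibody genes with values on all arrays, Igkv16-104 was the only one to average below Jchain. The table has 29 rows of 24 further heavy, light and surrogate light chain genes, Igll1 among them, and these were collected by symbol after the values of the 7 genes had been seen. They are described here without a test, and the 4 of them that also stand in a list further down (Igll1, Iglv1, Igkc and Igha) are counted with its test there. On all 3 arrays 9 rows (31.0%) had a value, against 59.5% of the whole table, and 12 were listed at 0 throughout. The median of the 9 means was -0.08. Above 0 in every mouse were the variable segment Igh-VS107 (mean 0.37) and the light chain segments Iglv1 (0.18) and Igk-V21 (0.13). Below 0 in every mouse were Igkv16-104, in the crowded stretch beside Btk, and the kappa constant gene Igkc, at -0.001, -0.03 and -0.49 in mice 11, 12 and 13. Before the array median was subtracted, Igkc was at 0.006 in mouse 11, so its sign there rests on the centring. The variable kappa segments Igkv10-96 (0.17, 0.08 and -0.53) and Igkv6-15 (0.01, 0.11 and -0.37) were, like Igkc, near or above 0 in mice 11 and 12 and below 0 in mouse 13. The heavy chain gene of IgA, Igha, was at 0.15, -0.09 and 0.18 in its only row with all values. The genes of the IgD and IgG3 heavy chains, Ighd and Ighg3, were listed at 0 on every array.

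**Figure D3:**
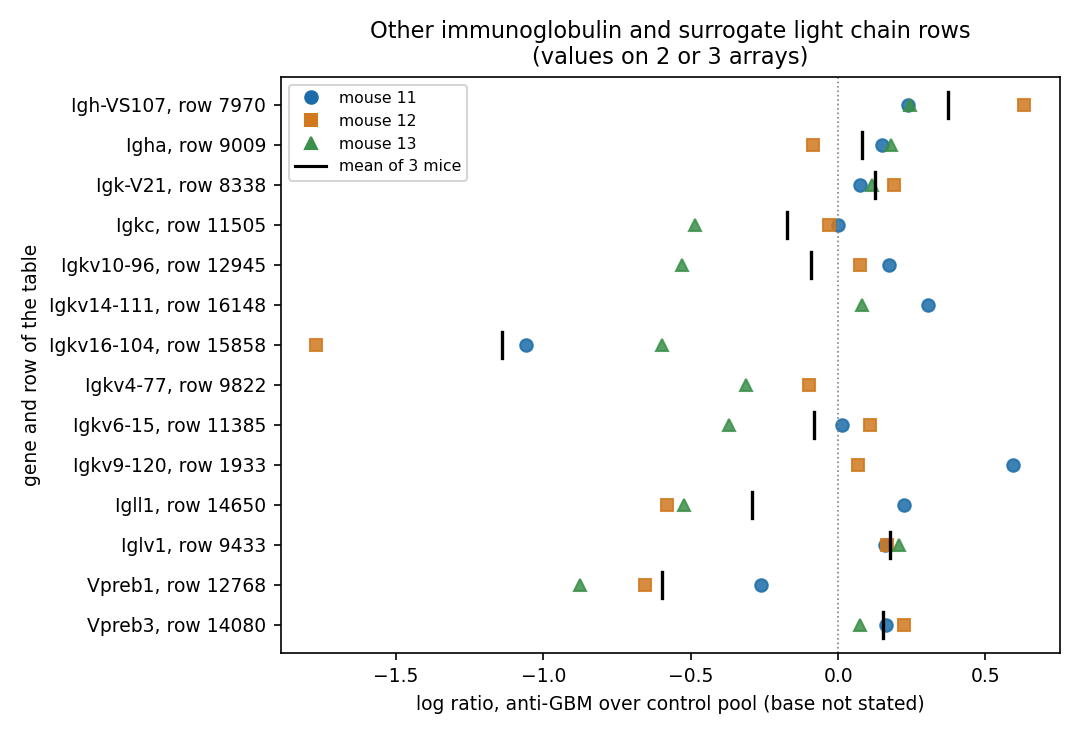
Log ratio (horizontal axis, base not stated) of the other antibody chain and surrogate light chain rows with values on 2 or 3 arrays, with a symbol for each mouse and a bar for the mean of 3 mice. Igkv16-104 (-1.14) and Vpreb1 (-0.60) have the lowest means, and Igkc, Igkv10-96 and Igkv6-15 are below 0 mainly through mouse 13.

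Markers of B lineage cells were thinly measured. Of 9 B cell markers with a row, 3 had values on all arrays. These were Cd22, Cd72 and Fcer2a, the last at 0.05 ± 0.115 (limma adjusted p = 0.649). Pax5, the factor that keeps cells in the B lineage, was listed at 0 in all mice. The surface marker Ms4a1 had 3 rows, of which 2 were listed at 0 throughout and 1 was at -0.32 in mouse 11, at -0.12 in mouse 12 and at 0 in mouse 13. Blk was at 0.19 in mouse 11 and 0.22 in mouse 13, and Cr2 at -0.06 and 0.04 in the same mice. Both were listed at 0 in mouse 12. Of 6 plasma cell markers 4 were measured on all arrays, and beside Jchain they were Sdc1 at 0.17 ± 0.05 (limma adjusted p = 0.123), Prdm1 at -0.40 ± 0.54 (adjusted p = 0.144) and Xbp1 at 0.01 ± 0.27 (adjusted p = 0.95). Prdm1, a regulator of antibody secretion, was at -0.94 in mouse 12 and 0.14 in mouse 13.

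The rest of the pathway was read from 10 lists of B cell genes, with the 7 genes left out. Of 173 listed genes 125 had a row and 77 had values on all arrays. The limma test at an adjusted p under 0.05 called 10 higher and 5 lower, and 62 did not pass. The share called, 19.5%, was close to the 19.4% of all 7235 genes, where 9.48% were higher and 9.97% lower. The median of the 77 genes was 0.01. Without mouse 11, and likewise without mouse 12, 8 of the 77 were past the test, and 5 genes passed with any 1 mouse left out: Vpreb1, Fkbp11, Cxcl13, Fcgrt and Fcgr1. With rows measured on 2 or 3 arrays, 6 of the 15 calls ended, those of Cxcl13, Ebf1, Fcamr, Fcer1g, Hmgb1 and Sh3bp5.

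Of 6 measured antibody chain and surrogate light chain genes, Vpreb1 was lower and 5 did not pass (median -0.05), among them Iglv1 (adjusted p = 0.112) and Vpreb3. B cell receptor signalling had 2 of 15 genes higher, 0 lower and 13 not past the test (median 0.03). The higher genes were the adaptor Grb2 (0.31 ± 0.09, adjusted p = 0.0277) and Sh3bp5, a Btk-binding protein (0.25 ± 0.05, adjusted p = 0.0451). The call of Grb2 ended without mouse 11 or 12 (adjusted p up to 0.12), and that of Sh3bp5 with any 1 mouse left out (up to 0.187) and without rows in crowded stretches (0.102). The calcium channel gene Itpr2 (-0.19 ± 0.06, adjusted p = 0.103) and the adaptor Pik3ap1 (0.19 ± 0.25, adjusted p = 0.212) were nearest to the threshold among the others. Itpr2 averages 4 rows with means from -0.50 to 0.04, and the lowest of them lies 11 row numbers from Btk. The Btk substrate adaptor Blnk was at 0.03 ± 0.15.

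Among 8 surface molecules the test called 1 higher and 0 lower, with 7 not past it (median 0.02). Cd72, a B cell surface protein with an inhibitory motif, was at 0.45, 0.26 and 0.25 in mice 11, 12 and 13 (adjusted p = 0.0287), and its 2 rows had means of 0.34 and 0.30. Its mean thus had the opposite sign to that of Cd22, and its call ended without mouse 11 (0.25, adjusted p = 0.208). Ly86 (0.39 ± 0.38, adjusted p = 0.0807) and Cd37 (-0.29 ± 0.39, adjusted p = 0.167) did not pass.

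Of 11 B lineage transcription factors the test called 2 higher and 0 lower, with 9 not past it (median 0.01). Ets1 was at 0.32 ± 0.15 (adjusted p = 0.0345) and the early B cell factor Ebf1 at 0.26 ± 0.09 (adjusted p = 0.0489). Both are also made outside the B lineage. The call of Ets1 ended without mouse 12 or 13 (adjusted p up to 0.0986). That of Ebf1 ended with any 1 mouse left out (up to 0.322), and after subtraction of the local median (0.18, adjusted p = 0.142). Spib (-0.23 ± 0.09, adjusted p = 0.0687) and Bcl11a (-0.23 ± 0.16, adjusted p = 0.101) did not pass.

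Plasma cell genes other than Jchain had 1 of 7 lower, 0 higher and 6 not past the test (median 0.01). The lower gene was Fkbp11, a prolyl isomerase of the secretory pathway, at -0.45, -0.485 and -0.54 in mice 11, 12 and 13 (adjusted p = 0.00555). Derl3 (-0.245 ± 0.11, adjusted p = 0.0612) and Sdc1 did not pass. Derl3 averages 2 rows with means of -0.39 and -0.10, and 1 of them has 12 very low rows within 100 row numbers. Early B cell and stem cell genes had 1 of 7 lower, which was Vpreb1, 0 higher and 6 not past (median 0.01). Genes of V(D)J recombination and class switching had 1 of 8 higher, 1 lower and 6 not past (median -0.03). The chromatin proteins Hmgb2 (0.385 ± 0.02, adjusted p = 0.0115) and Hmgb1 (-0.35 ± 0.21, adjusted p = 0.0381), which are made in most cells, were the called genes. The call of Hmgb2 ended without mouse 11 (adjusted p = 0.0534), and that of Hmgb1 without mouse 11 or 12 (up to 0.127). Nhej1 (0.23 ± 0.07, adjusted p = 0.0613) and Apex1 (0.27 ± 0.17, adjusted p = 0.0627) did not pass.

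Of 11 growth and homing factors for B cells the test called 1 higher and 1 lower, with 9 not past it (median -0.02). Cxcl13, the chemokine that draws B cells into follicles, was at 0.57 in mouse 11, 1.36 in mouse 12 and 0.91 in mouse 13 (adjusted p = 0.00573), above 0 in all mice. With rows measured on only 2 arrays averaged in, it was at 0.38 (adjusted p = 0.365). The cytokine Il5 was lower (-0.30 ± 0.06, adjusted p = 0.0287), a call that ended without mouse 11 or 12 (adjusted p up to 0.167). Ccl19 (0.28 ± 0.17, adjusted p = 0.059) and Tslp (-0.20 ± 0.14, adjusted p = 0.125) did not pass, and the B cell survival factor Tnfsf13b was at 0.16 ± 0.17.

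Receptors that bind or carry antibodies had 3 of 9 genes higher, 1 lower and 5 not past the test (median 0.10). The activating IgG receptor Fcgr1 was at 0.80, 0.82 and 0.33 in mice 11, 12 and 13 (adjusted p = 0.00883). The neonatal Fc receptor Fcgrt, which recycles IgG, was at 0.28, 0.40 and 0.48 (adjusted p = 0.0145). The shared signalling chain Fcer1g was at 0.60, 0.52 and 0.06 (adjusted p = 0.0457), a call that ended without mouse 11 or 12 (up to 0.177). Fcamr, a receptor for IgA and IgM, was lower (-0.27 ± 0.08, adjusted p = 0.0397), and its call ended with any 1 mouse left out (adjusted p up to 0.117) and after subtraction of the local median (0.0534). Trim21, a cytosolic antibody receptor (0.18 ± 0.01, adjusted p = 0.104), and Pigr did not pass.

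Some markers of other cells passed the test in the same kidneys, and their part in the values above was not tested. Their counts stand beside the 9.48% higher and 9.97% lower of all 7235 genes. Of 16 measured myeloid markers the test called 10 higher and 3 lower, with 3 not past it and list medians of 0.415, 0.246 and 0.14 in mice 11, 12 and 13. Fcgr1 and Fcer1g are among the 10 and are the same genes as in the list of antibody receptors. Without mouse 11 the higher calls of Lyz2, Aif1, Mpeg1, Fcer1g and Prtn3 ended (adjusted p up to 0.268). Those of Fcgr1, Itgb2, Ctss, S100a8 and S100a9 held with any 1 mouse left out. S100a8 averages 2 rows with means of 0.01 and 1.115. The lower call of Ngp ended without mouse 12 (adjusted p = 0.156), and its row has 18 very low rows within 100 row numbers. Those of Csf1r and Ltf held. Btk, which myeloid cells also make, was below 0 in the same kidneys, in a single row that lies among very low rows. Other called markers include S100a9 (1.42 ± 0.38, adjusted p = 0.0011) and Csf1r (-0.72 ± 0.33, adjusted p = 0.00919). T and NK cell markers had 2 of 6 higher and 4 not past, with medians of 0.15, 0.07 and 0.16. Their defining genes Cd3d, Cd3e and Cd3g had no row with values on all arrays. Red cell and platelet genes had 1 of 11 higher, 4 lower and 6 not past, with medians of -0.09, -0.12 and -0.20. Among them Slc4a1, the red cell anion exchanger, was at -0.65, -0.53 and -1.09 in mice 11, 12 and 13 (adjusted p = 0.00583). Other genes of this list did not go the same way: Alas2 (0.21 ± 0.165, adjusted p = 0.126) and Hbb-b2 (-0.05 ± 0.70, adjusted p = 0.88) did not pass. Car1, a red cell carbonic anhydrase, was at -2.20, -1.68 and -1.13 (adjusted p = 0.00178), and the platelet chemokine Pf4 was higher (0.63 ± 0.19, adjusted p = 0.00552). Mouse 13 was thus the lowest for Slc4a1 and the least low for Car1. The Car1 row has 5 very low rows within 100 row numbers, and the part of row position in its value was not tested. Kidney cell markers had 3 of 10 lower, 0 higher and 7 not past, with medians of 0.06, -0.28 and -0.01.

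**Figure D4:**
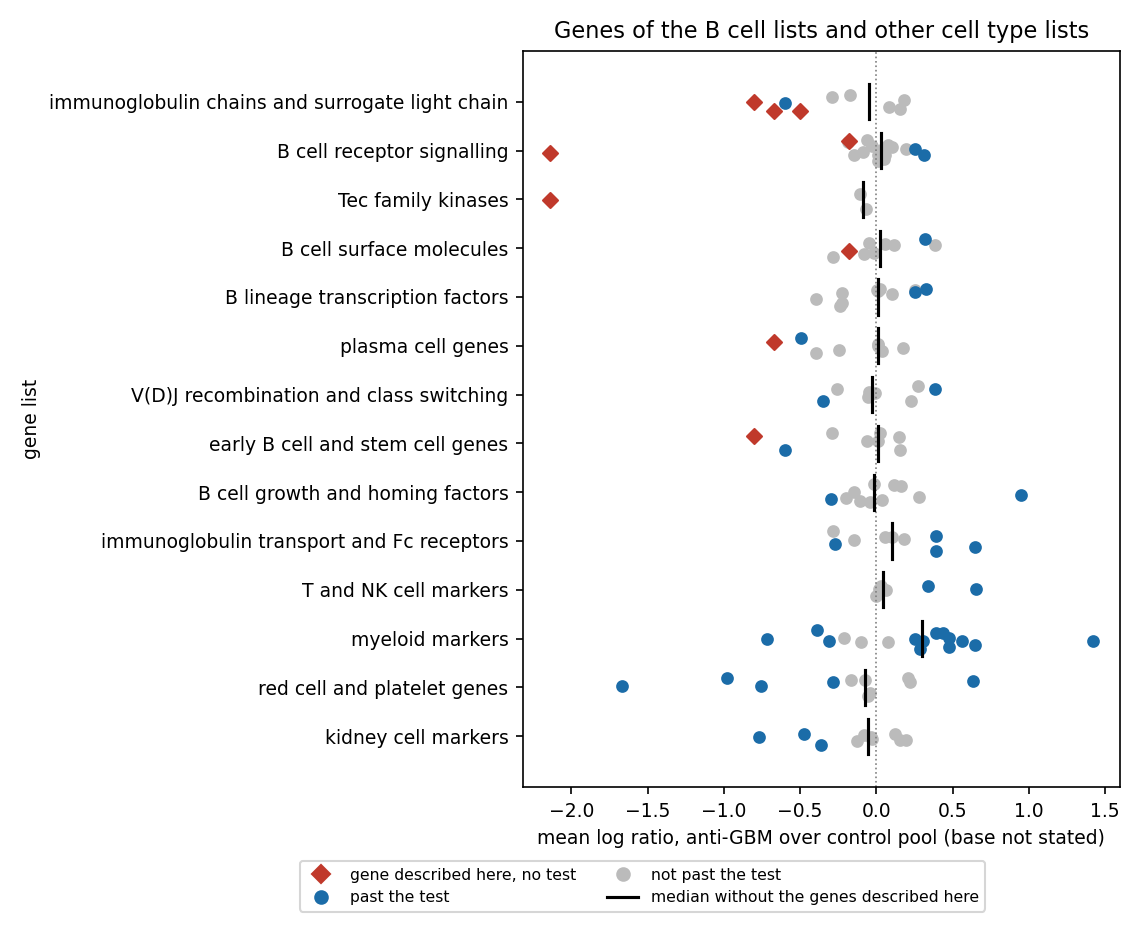
Mean log ratio over 3 mice (horizontal axis, base not stated) of each measured gene of the 10 B cell lists and the 4 lists of other cells. Diamonds are the genes described without a test, dark points passed the test, grey points did not, and bars are list medians without the diamonds: these medians lie between -0.09 and 0.10 for the B cell lists, against 0.30 for myeloid markers.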

How the data were processed

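The deposited table holds 1 value for each of 16281 rows and 3 arrays. The labels give 2 channels per array, and the values are read as log ratios of these channels. How the authors made the deposited values (scanner, background, normalization, log base, direction) was not stated in the sources read here. The platform annotation gives 1 gene for 13738 rows, several for 52 and lists no entry for 2491. RefSeq (GRCm38.p6) held 13694 of the 1-gene rows, without a change of symbol.

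Exact zeros were left out, the median over other values was subtracted per array (0.0077, 0.0105 and 0.01), and rows with values on all arrays were averaged per gene. Values other than 0 numbered 10898, 10789 and 11483 per array. An intercept-only model was fitted over all 7235 genes (limma 3.58.1, R 4.3.3), Benjamini-Hochberg adjusted over all of them, with no log2 conversion since the base is unknown. Python 3.11.15, pandas 2.3.3, numpy 2.4.6 and matplotlib 3.10.9 did the rest. On simulated data of 7235 genes with the spread of this comparison, the fit called 99 of 100 genes shifted by 0.5 and 15 of 7035 unshifted genes. The simulated noise was independent between arrays. Errors of the shared control pool or of the dye order, which all arrays would share, were thus not part of it.

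The genes and lists were chosen with earlier results of these data known. Named were the 7 genes, up to 6 called genes and 2 others of smallest p per B cell list, preset genes (Rag1, Pax5, Ms4a1, Pigr and Sdc1, with 1 other not reported here) and the 3 genes most like Ighm, Jchain and Btk. Blnk, Bmx, Txk, Tnfsf13b, Prdm1, Xbp1, Fcer2a, Blk, Cr2 and the examples from lists of other cells were named after their values were seen. Alternatives were centring, zeros, row choice, array number, local median (100 row numbers on either side), each mouse left out and a test without moderation. Leaving out rows with at least 3 others below -1 within 100 row numbers was added after the data were seen. The number of arrays limits the precision.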

Additional observations from a re-analysis of the deposited data

How the results depend on the processing

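No paired analysis was possible because all arrays belong to 1 group. The mean of Ighm depended on how its rows were joined: -0.50 as reported, -0.29 with exact zeros kept as 0, -0.14 as the median row and -0.0564 with the row of smallest spread. Vpreb2 was at -0.49 with zeros kept. No other mean of the 5 genes moved by more than its SD under the alternatives, and all stayed below 0. Btk had no value once rows in crowded stretches were left out, and subtraction of the local median could move it only a little. With 1 mouse left out, Btk ranged from -2.33 to -1.83, Vpreb2 from -0.94 to -0.67, Jchain from -0.75 to -0.56, Ighm from -0.53 to -0.46 and Cd22 from -0.22 to -0.11. Genes past the test numbered 1407, of them 15 in the B cell lists. With zeros kept they were 22 and 0, without moderation 3 and 0, with rows measured on 2 or 3 arrays 9 in the lists, and with 1 mouse left out 726 to 1032 and 8 to 16. Each refit on fewer mice has fewer arrays, and the other causes were not tested. At an unadjusted p under 0.05, 2602 genes passed in the limma fit. The 15 list genes kept their direction in all alternatives run.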
